A study of Saccharomyces cerevisiae with 24 samples.

Results

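The asparaginase genes ASP3-1, ASP3-2, ASP3-3, ASP3-4 and ASP1 were examined in the W303 genome annotation deposited with a ChIP-seq study of the Snf2 protein Uls1 and the topoisomerase Top2. Members were chosen by gene name in this annotation, as gene features that carry one of these 5 names with repeated names included, and 2 of 5630 gene features met this rule. No expression or binding value chose them, and their counts, positions and lengths, which come from the same file as the names, are given as a description without tests. ASP3-4 and ASP1 had 1 feature each, and ASP3-1, ASP3-2 and ASP3-3 had none. The description of these genes as an ASP3 array therefore holds for the reference strain S288C, which has 4 ASP3 genes, and not for this annotation of W303. The file holds no rRNA features.

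The series comprises 24 libraries in 12 groups of 2, all from W303 budding yeast grown in rich medium. Acriflavine (ACF), a Top2 poison, was given for 2 h or left out. FLAG-tagged Uls1, expressed from its own locus, was immunoprecipitated from WT cells at 0 or 100 µM of the drug. HA-tagged Top2 was immunoprecipitated at 0 or 250 µM from WT cells and from uls1Δ cells, in strains that carry the tagged copy in addition to the untagged TOP2. Each of these conditions has 2 immunoprecipitates and 2 inputs. The paper describes pooling of replicate ChIPs for Top2, and its supplementary methods describe such pooling for the ChIP-seq libraries in general. ChIP signal at the asparaginase genes was not analysed here, so no comparison of genotypes or doses was made, and the values below are positions and lengths without replicate error.

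L-asparaginases hydrolyse asparagine to aspartate and ammonia, which lets yeast use asparagine as a nitrogen source. Asp1 is the cytosolic enzyme and is made constitutively, whereas Asp3 is secreted to the cell wall and its expression is induced when nitrogen is short. The rDNA on chromosome 12 is a tandem array whose units each encode a large rRNA precursor (RDN37), made by RNA polymerase I, and a 5S rRNA (RDN5), made by RNA polymerase III. The number of units differs between strains, and a genome assembly can show far fewer than a cell contains.

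Shown first is the part of ASP3 that the W303 feature lacks, if the feature is aligned to S288C by its distance from MAS1. The sequence is that of S288C ASP3-4 in the RefSeq build R64, chr12:486201-486452 on the minus strand, from base 838 of the gene to base 1089. Capitals mark the 222 bases after base 867, which end with the stop codon.
ASP3-4 3′ end: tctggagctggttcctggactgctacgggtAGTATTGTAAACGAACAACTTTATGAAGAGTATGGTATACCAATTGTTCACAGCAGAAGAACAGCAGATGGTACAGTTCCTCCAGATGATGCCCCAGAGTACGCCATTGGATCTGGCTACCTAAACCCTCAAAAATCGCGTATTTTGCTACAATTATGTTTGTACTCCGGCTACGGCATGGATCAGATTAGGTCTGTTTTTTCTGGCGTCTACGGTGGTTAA

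The ASP3 feature of W303 was shorter than the S288C gene. ASP3-4 (YLR160C) lies on chromosome 12 of the assembly ASM216351v1, from 474690 to 475556 on the minus strand, and is 867 bp long. In S288C the gene has 1089 bp, so the feature was 222 bp shorter, or 79.6% of the S288C length. The difference is a whole number of codons, 74 with the stop codon, and 867 bp make 289 triplets. The size note of the feature reads different. In S288C the reading frame has 1 stop codon, at its end, and none at base 867. The W303 sequence was not read here, so which base or codon ends the W303 feature is not known.

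ASP1 (YDR321W), the gene outside the array, did not differ in length. Its feature spans bases 1117868 to 1119013 of chromosome 4 (plus strand), has 1146 bp in both annotations and is noted as the same size. Of all gene features, 524 of 5630 (9.31%) are noted as differing in size, and of the 2 asparaginase features only 1, ASP3-4, is so noted. Of 443 features noted as different whose name is used for no other feature and is found in S288C, 212 were shorter than in S288C. Of these 212, 133 (62.7%) were shorter by 222 bp or more and 131 by a whole number of codons, so the change in ASP3-4 was within the range of the features noted as different.

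The 4 ASP3 genes of S288C cannot be told apart by their own sequence. All 4 are 1089 bp long, lie on the minus strand and are identical base for base, and their promoters, taken from 250 bases before to 50 bases after the first base of the start codon, are identical too. By sequence alone a fragment of ASP3 could thus carry any of the 4 names, and the name ASP3-4 of the W303 feature rests on the pipeline of the authors. The W303 feature lies 4576 bp from MAS1, as ASP3-4 does in S288C, but which S288C copy it corresponds to was not tested. The proteins predicted from these genes have 362 residues and that of ASP1 has 381. Asp1 and Asp3 had 171 identical residues in a global alignment of 405 columns (42.2%). By nucleotide search, ASP3 matched ASP1 only over 117 bp at 69.2% identity and 45 bp at 80% identity, and no other place outside the 4 genes matched on the nuclear chromosomes of S288C.

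Promoters of ASP3-4 and ASP1 are shown because the notes in the annotation give the genes different regulation, nitrogen starvation for ASP3 and constitutive synthesis for ASP1. Both are S288C sequence of the build R64, chr12:487240-487539 on the minus strand and chr4:1108452-1108751 on the plus strand. Capitals mark GATAAG on either strand, a core sequence of sites for GATA factors such as Gln3, the activator of nitrogen catabolite genes.
ASP3-4 promoter: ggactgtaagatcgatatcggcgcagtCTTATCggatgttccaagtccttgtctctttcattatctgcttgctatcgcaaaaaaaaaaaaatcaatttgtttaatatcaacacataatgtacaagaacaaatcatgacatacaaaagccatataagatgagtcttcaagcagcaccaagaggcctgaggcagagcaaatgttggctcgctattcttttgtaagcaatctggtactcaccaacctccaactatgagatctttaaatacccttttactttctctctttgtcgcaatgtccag
ASP1 promoter: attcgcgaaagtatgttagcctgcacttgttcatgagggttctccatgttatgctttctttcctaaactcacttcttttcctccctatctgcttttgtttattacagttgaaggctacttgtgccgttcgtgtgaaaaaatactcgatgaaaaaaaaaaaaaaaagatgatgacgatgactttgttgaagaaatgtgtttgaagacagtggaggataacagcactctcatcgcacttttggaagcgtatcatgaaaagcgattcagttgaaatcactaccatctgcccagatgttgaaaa

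The ASP3-4 window holds 1 match and the ASP1 window 0. Of 6001 windows of the same length in S288C, 881 (14.7%) hold the sequence at least 1 time. A match describes these letters only, and factor binding was not measured.

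In S288C the ASP3 genes form a repeat that carries a 5S rRNA gene with each copy. Between neighbouring starts there are 3652 bp from ASP3-1 to ASP3-2, 9580 bp from ASP3-2 to ASP3-3 and 3652 bp from ASP3-3 to ASP3-4. The longer middle spacing contains a Ty1 retrotransposon of 5922 bp, and the spacing exceeds the others by 5928 bp. The array covers 17973 bp from the first base of ASP3-1 to the last base of ASP3-4. Since the W303 annotation has 1 ASP3 feature, no spacing between copies can be given for it.

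Each S288C ASP3 gene has a 5S gene 385 bp from its 3′ end, and these 5S genes differ in sequence from RDN5-1. RDN5-2, beside ASP3-1, lies as far beyond RDN37-2 as RDN5-1 lies beyond RDN37-1, so it also holds the 5S position of an rDNA unit. The sequences shown give both forms of the 5S gene at this locus. RDN5-1 (R64, chr12:459676-459796, plus strand) lies between the RDN37 copies, and RDN5-3 (chr12:472465-472583, plus strand) lies beside ASP3-2. Capitals mark the bases after the 117 that both share.
RDN5-1: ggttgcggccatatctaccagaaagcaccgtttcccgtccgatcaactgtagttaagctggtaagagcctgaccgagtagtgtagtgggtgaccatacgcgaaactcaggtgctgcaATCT
RDN5-3: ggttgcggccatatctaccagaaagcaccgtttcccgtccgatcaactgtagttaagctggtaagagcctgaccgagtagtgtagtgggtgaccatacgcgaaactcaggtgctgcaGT

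RDN5-2, RDN5-3, RDN5-4 and RDN5-5, the 4 copies beside ASP3 genes, have identical sequences of 119 bp. RDN5-6, which lies between ASP3-4 and MAS1, has the 121 bp sequence of RDN5-1. In S288C the distance from the start of each of the 4 ASP3-linked 5S genes to base 867 of the ASP3 gene is 726 bp. In W303 the distance from RNH203 to the end of the ASP3-4 feature is 653 bp, which is shorter. The 726 bp include the 222 bp after base 867, which the W303 feature lacks. Whether these bases or a 5S gene lie within the 653 bp was not tested, since the W303 sequence was not read here.

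The rDNA of S288C lies on the RNH203 side of the ASP3 genes and not on the MAS1 side. RNH203 encodes a subunit of RNase H2, and MAS1 encodes a subunit of the mitochondrial processing protease. In S288C the order is ACS2, RNH203, 2 copies of RDN37, the 4 ASP3 genes and MAS1. From RNH203 to the first RDN37 there are 3260 bp, the RDN37 copies cover 15995 bp with a period of 9137 bp, and 1747 bp separate the last of them from ASP3-1. In W303 the order is ACS2, RNH203, ASP3-4 and MAS1, with nothing else annotated between RNH203 and MAS1. The missing tRNA gene between RNH203 and the rDNA cannot be interpreted, because the file has 0 tRNA features on chromosome 12.

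**Figure D1:**
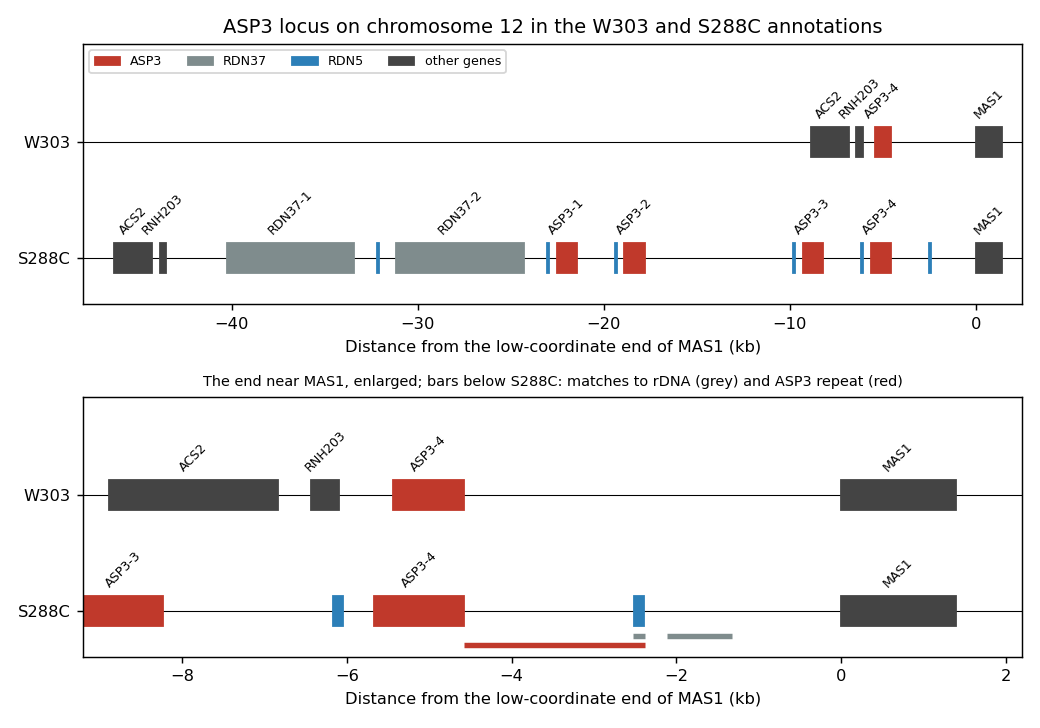
Map of the ASP3 locus in W303 (upper line of each panel) and S288C (lower line), each drawn in its own coordinates as distance in kb from the end of MAS1 that faces ASP3-4. Red boxes are ASP3 genes, grey boxes RDN37, blue boxes 5S genes and dark boxes ACS2, RNH203 and MAS1, other genes are not drawn, and the lower panel enlarges the MAS1 side. The right end of ASP3-4 lies 4576 bp from MAS1 in both strains, and RNH203 lies 6096 bp from MAS1 in W303 and 43551 bp in S288C.

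Distances differed between the annotations on the RNH203 side of ASP3-4 and were equal on the MAS1 side, where S288C genes without a W303 feature also lie. The stretch between ASP3-4 and MAS1 is 4576 bp in W303 and 4576 bp in S288C, so the 5′ end of the gene is at the same distance from MAS1. Its 3′ end is 5443 bp from MAS1 in W303 and 5665 bp in S288C, so that, aligned by distance from MAS1, the feature is 222 bp shorter at its 3′ end, towards RNH203. ACS2 and RNH203 are 406 bp apart in both. Between RNH203 and ASP3-4 there are 653 bp in W303 and 37886 bp in S288C, a difference of -37233 bp, and from RNH203 to MAS1 the difference is -37455 bp. The 653 bp are also fewer than the 3260 bp that separate RNH203 from the first RDN37 in S288C.

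This was the largest change between neighbouring genes in the genome as annotated. Distances were compared for 5405 pairs of genes that are neighbours in both annotations once other genes are left out. Those left out are absent from either annotation or have names used more than 1 time in W303, so other features can lie within a pair. The distance was equal to the base in 4445 pairs (82.2%) and within 10 bp in 4907 pairs (90.8%). In W303 13 pairs were more than 1000 bp closer and 43 pairs more than 1000 bp further apart. The second-largest change was a gain of 14394 bp between TCM62 and RPS11B on chromosome 2, and the next largest loss was -13658 bp between BSC5 and COS10 on chromosome 14. Genes named more than 1 time in W303 lie between TCM62 and RPS11B. Among the 40 pairs nearest to RNH203 and ASP3-4, 20 on each side, 37 had equal distances, and all 11 pairs from ASP3-4 to CBF5 did. The distances describe the assemblies as deposited, and neither the number of rDNA units nor that of ASP3 genes in the cells was measured.

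**Figure D2:**
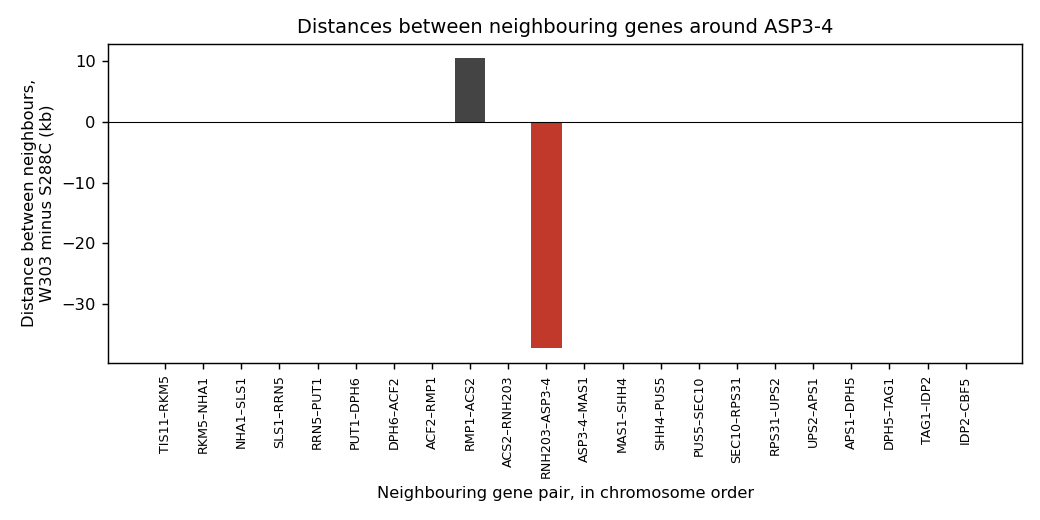
Difference in distance between neighbouring genes, W303 minus S288C, in kb, for 22 consecutive gene pairs of chromosome 12. The red bar is the pair RNH203 and ASP3-4 at -37233 bp, the bar above 0 is RMP1 and ACS2 at 10453 bp, and ACF2 and RMP1 (-49 bp) and NHA1 and SLS1 (3 bp) are the other pairs that differ.

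S288C genes of the locus were mostly without a W303 counterpart. Between RNH203 and MAS1 S288C has 19 protein-coding genes, and 18 of them have no W303 feature of their systematic name, against 497 of 6002 nuclear genes (8.28%) overall. Of the 18, 15 lie between RNH203 and ASP3-4 and 3 between ASP3-4 and MAS1. They include TAR1, a gene on the opposite strand of an rRNA gene, the Ty1 genes YLR157C-A and YLR157C-B, and ASP3-1, ASP3-2 and ASP3-3. The 15 form the longest of 357 runs of neighbouring genes without a feature of their name, followed by 10 genes between FLO5 and IMD2 on chromosome 8, and 80.7% of the runs consist of 1 gene. The authors labelled unidentified genes similar to gag-pol genes or Y′ helicases by class, so such genes can count as absent. The run of 8 genes between PMD1 and RTR1, for example, holds features labelled TKP/TY. Between RNH203 and MAS1, ASP3-4 is the only feature of any class.

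The stretch from ASP3-4 to MAS1 has no annotated feature in W303. Its 4576 bp rank 32 among 6065 feature-free stretches of the nuclear chromosomes, whose median is 379 bp, and rank 3 among 510 on chromosome 12. The stretch of 653 bp on the other side is longer than 73.3% of all. In S288C a stretch of the same length contains YLR161W, the 5S gene RDN5-6, YLR162W and RRT15. The 2197 bp that follow ASP3-4 there match the stretch beside ASP3-1 at 99.7% identity, and 793 bp, which end 1320 bp before MAS1, match the 3′ end of RDN25-1, the gene of the large rRNA, at 98.9%. The 5S gene RDN5-6 and its flanks match the rDNA unit over 141 bp at 97.2%. Together these matches cover 2990 bp (65.3%) of the stretch, so on the MAS1 side S288C has fragments of rDNA but no whole unit. The W303 sequence of the stretch was not read here. According to the supplementary methods, the authors searched the W303 reference with an rDNA repeat. Their top hit, a part of the large rRNA precursor locus, has coordinates that fall within this stretch. It ends at nearly the same distance from MAS1 as the 793 bp match in S288C.

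**Figure D3:**
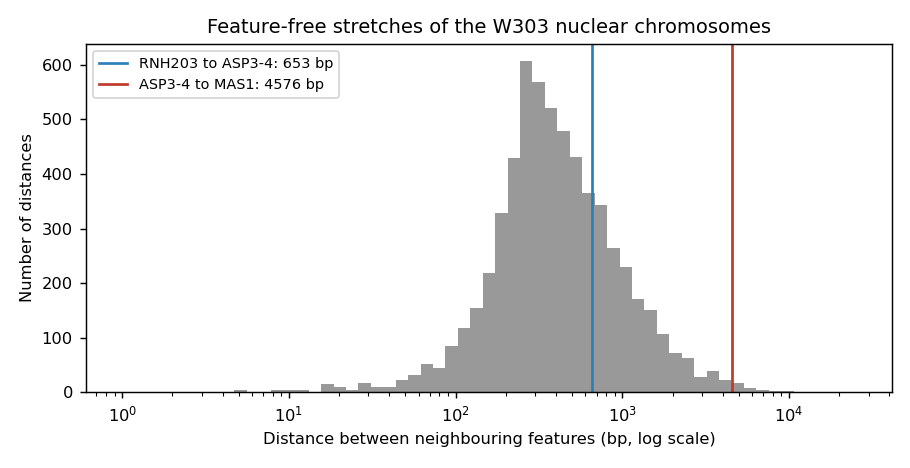
Histogram of the 6065 distances between neighbouring features on the 16 nuclear chromosomes of W303, on a log axis in bp, with the number of distances on the vertical axis. The blue line marks RNH203 to ASP3-4 (653 bp) and the red line ASP3-4 to MAS1 (4576 bp), which only 0.511% of the distances exceed.

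Genes around ASP3-4 were annotated at their S288C length, but a doubled block precedes them. On the MAS1 side MAS1 (480133 to 481521, minus strand, 1389 bp), SHH4, a paralogue of a succinate dehydrogenase subunit (507 bp), PUS5, a mitochondrial pseudouridine synthase (765 bp), and SEC10, an exocyst subunit (2616 bp), all had the S288C length. MAS1 contains 1 ARS consensus feature, annotated with a span of 12 bp. On the other side RNH203 (473704 to 474036, 333 bp) and ACS2, an acetyl-CoA synthetase (471246 to 473297, 2052 bp), are on the minus strand and unchanged in length. Before ACS2, 8 genes from SPE4 to YLR152C are named 2 times each, first with a strand and then, from 458708 to 470410, without one.

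In the doubled block the second features follow the first at an almost constant shift. The shift was 10454 bp for the start or the end of 5 of the 8 genes and for both in 3 of them, and the distance from RMP1 to ACS2 is 10453 bp longer than in S288C. Of the second features 6 have the S288C length, among them STM1, a ribosome-associated protein (822 bp), and PCD1, a peroxisomal diphosphatase (1023 bp). The second YLR152C is 835 bp from ACS2, as in S288C. The second feature of PCD1 is noted as different although it has the S288C length. That of SPE4 is noted as the same although it has 741 bp and the S288C gene 903 bp. The second YLR152C (1731 bp) is also noted as different at the S288C length. The second PEP3 is noted as the same with 1470 bp against 2757 bp. In this block the note of a second feature thus does not always go with its length. The note of ASP3-4 has only 1 feature to refer to.

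The surroundings of ASP1 were close to those in S288C. DAD4, a kinetochore protein gene, lies 203 bp before ASP1 in both. After ASP1 the mitochondrial ribosomal protein gene MRPL35 has 2 features, of 195 bp and 1104 bp, and the S288C gene has 1104 bp. The next gene, TIM11, which encodes a subunit of the ATP synthase, is 2599 bp from ASP1 in W303 and 2155 bp in S288C, a difference of 444 bp. HIM1, MCM21, YFT2 and SWA2 before ASP1 and PEP7 and UTP4 after it all had the S288C length.

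ASP3 was the repeated family with fewer features in W303 than genes in S288C among the arrays compared. The copper metallothionein genes CUP1-1 and CUP1-2 have 8 features against 2 genes, all of 186 bp, spaced by 1997 to 1999 bp. RSC30, which lies in the CUP1 repeat, has 8 features against 1 gene, and 1 of these has the S288C length. The sodium pump genes ENA1, ENA2 and ENA5 have 4 features against 3 genes, all of 3276 bp and spaced by 3885 bp. Copies of these other repeats are listed in the file, CUP1 with 6 and ENA with 1 feature without strand, whereas ASP3 has 1 feature, with its strand given. Why the counts differ between the families was not tested.

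**Figure D4:**
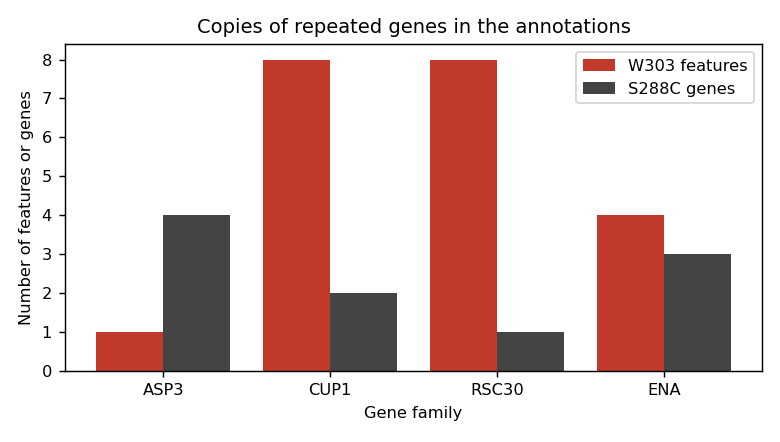
Number of W303 gene features (red) and S288C genes (dark) for 4 repeated genes or families, counted by gene name. ASP3 has 1 feature against 4 genes, CUP1 8 against 2, RSC30 8 against 1 and ENA 4 against 3.

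Other genes of asparagine use, and genes of factors that act at the rDNA, were present in W303. All 24 genes of the lists compared have a feature, and 22 have the S288C length. Asparagine and aspartate metabolism has 9 of 9 genes, including ASN1 and ASN2, the asparagine synthetases (1719 bp each), and AAT2, the cytosolic aspartate aminotransferase, was the exception in length with 1299 bp against 1257 bp. The 4 amino acid permeases AGP1, GNP1, DIP5 and GAP1 had their S288C lengths. Of the 5 nitrogen regulators GZF3, a GATA repressor, was shorter, with 1437 bp against 1656 bp, a difference of -219 bp, and GLN3, GAT1, DAL80 and URE2 did not differ. The 6 genes of RNA polymerase I and of factors that act at the rDNA, RPA190, RPA135, RRN3, FOB1, SIR2 and NET1, also had their S288C lengths. With 2 of 24 noted as different, the lists were near the 9.31% of all gene features, and ASP3 was the only family in these comparisons with names absent from W303.

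Of the 21 sequences in the file, 3 carry no feature, and their lengths are 3688, 19305 and 11673 bp. They could not be placed relative to the ASP3 locus, and their content was not analysed here.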

How the data were processed

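Positions were taken from the W303 genome annotation deposited by the authors, whose other values are labels. Coordinates are 1-based and in bp on the assembly ASM216351v1. According to the supplementary methods, the authors annotated the assembly with the Yeast Genome Annotation Pipeline, searched ORFs that it missed by BLASTn and compared sizes with S288C. The version of this pipeline was not given in the sources read. For the libraries, of which no value was used, the processing notes of the submitters list deepTools, MACS2, BWA, SAMtools, ChIPseeker and bedtools, all without versions, and the build R64. The paper, by contrast, states that the reads were mapped to the W303 genome.

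Lengths, distances and orders were computed per build and compared with the RefSeq build R64 by systematic name. Coordinates were never converted. Sequences and positions of S288C genes are RefSeq's. Distances are the bases between features. Protein sequences were translated and aligned globally (BLOSUM62, gap costs 10 and 0.5), and nucleotide matches were found with BLAST at an expect threshold of 0.001. The pair comparison recovered all planted changes on simulated data of 5000 genes. No test was applied, since the file has no replicates. Depth does not apply.

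Genes named are the members, 5 neighbours on each side, genes between ACS2 and MAS1, and members of lists. The members and lists were chosen with earlier results of these data known. SPE4, RMP1, the doubled block, the pairs with the largest changes, the longest runs, NHA1, SLS1, ACF2, CBF5 and the 5S genes were named after their values were seen. Analyses used python 3.11.15, numpy 2.4.6, Biopython 1.88, BLAST 2.17.0 and matplotlib 3.10.9.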

Additional observations from a re-analysis of the deposited data

How the results depend on the processing

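Of 16 alternatives, 4 gave a different measure or rank and are given below, and the other 12 gave a value equal to that reported or within 1.5 times of it. The number of ASP3 features, the 222 bp by which ASP3-4 was shorter and the 4576 bp beside MAS1 were equal under each alternative tried for them. The rank of the 4576 bp was 32 among stretches between features of any class on the nuclear chromosomes, 3 on chromosome 12 alone and 68 when only gene features were counted, because these settings count other stretches. The median spacing of the S288C copies was 3652 bp from starts, ends, midpoints and the period of sequence identity, and 2563 bp as the gap between copies, which leaves out the gene itself. The identity of Asp1 and Asp3 was 42.2% over alignment columns and 47.2% over the shorter protein. The rank of RNH203 and ASP3-4 among changes in distance stayed 1 when only S288C genes of 300 bp or more were used, an alternative chosen after seeing the data. Size notes give no length, so that alternative gave no value, and the spacing of W303 copies could not be given with 1 feature. No paired analysis was possible because no library values were analysed. All values rest on 1 assembly and 1 annotation per strain, and the copies present in the cells were not counted.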
